A study of Mus musculus with 8 samples.

Results

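The genes described here encode the general transcription machinery of the mouse: subunits of RNA polymerases I, II and III, the general transcription factors of Pol II and Pol III, the Mediator complex and the TBP-associated factors (TAFs). They were chosen by symbol, as every gene named Polr1, Polr2, Polr3, Gtf2 or Gtf3 with any ending, or Med or Taf followed by a number, with the zinc-ribbon genes Znrd1 and Elof1 added, and without Taf4b and pseudogenes. Of the 15962 genes listed in all 8 deposited tables, 102 met this rule. They comprised 6 Pol I genes (Polr1 with Znrd1), 14 Pol II genes (Polr2 with Elof1), 10 Polr3, 15 Gtf2, 7 Gtf3, 30 Med and 20 Taf genes. One further symbol, Gtf2ird2, was listed in the 4 control tables alone, at 0.0236 to 0.0555 TPM, and was left out.

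Each RNA polymerase is built from a pair of large catalytic subunits, a set of smaller subunits shared with the other polymerases, and subunits of its own. Pol II starts at promoters with the help of TFIIA, TFIIB, TFIID (TBP or a relative with its TAFs), TFIIE, TFIIF and TFIIH, while Mediator links it to activators through its tail, middle, head and kinase modules. Fully grown oocytes have stopped transcribing, so an RNA can no longer be replaced by new synthesis during meiotic maturation. RNA for this machinery is inherited by the embryo, whose genome must be transcribed after fertilization.

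Polyadenylated RNA was measured with Smart-seq2 in oocytes of mice (female ICR in the study's methods, which give an age of 6 weeks where they describe oocyte collection), with 15 oocytes per library and 2 libraries analysed in each of 4 groups, although the labels speak of 3 samples for a group. GV oocytes were fully grown, arrested in prophase with an intact germinal vesicle, and MII oocytes had matured from that stage in vitro; neither group was injected. Btg4wt and Btg4tm oocytes were injected while fully grown with Myc-tagged Btg4 cRNA and collected at MII, the cRNA of Btg4wt being wild type and that of Btg4tm carrying alanine at 3 neighbouring phosphosites. BTG4 is an adaptor that brings the CCR4-NOT deadenylase to maternal mRNA, and the endogenous Btg4 gene was intact in all 4 groups, which limits both injected groups as models.

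Btg4 RNA itself stood at 2650 and 2794 scaled TPM in GV, 5792 and 6002 in MII, 5178 and 5510 in Btg4wt, and 3725 and 4068 in Btg4tm. It was thus no higher in the injected libraries than in MII, and these values cannot serve as a check that the cRNA was delivered. Btg4tm also held less of it than Btg4wt (log2 −0.46 ± 0.10 SE, limma with Benjamini-Hochberg adjusted p = 0.0057, under the fold required). The injected groups thus differed in Btg4 RNA as well as in the phosphosites, and what this did to other RNAs was not tested. At the protein level, the paper reports immunoblots in which wild-type and mutant BTG4 were overexpressed in oocytes. It adds that the injected forms seemed to lower endogenous BTG4, a point it leaves to be clarified. Oocyte markers were all listed in every library (12 of 12, summed level 42127 to 53682 scaled TPM), against 4 of 13 cumulus and granulosa cell markers (summed level 22.7 to 34.1) and 0 of 5 leukocyte and red cell markers. Between the libraries of a group, log2 levels over all genes correlated at 0.982 to 0.987 (Pearson), and the tested members differed by a median of 0.10 to 0.18 on the log2 scale. Mitochondrially encoded RNAs took 0.625 to 0.651% of TPM in GV, 2.60 to 2.71% in MII, 1.75 to 2.05% in Btg4wt and 0.765 to 1.02% in Btg4tm, so they moved with the groups. TPM are shares of a library per transcript length and keep no read depth, so counting error is unknown and precision rests on the 2 libraries per group.

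Values below are scaled TPM, that is, deposited TPM divided by 1 factor per library (0.948 to 1.11). Changes are log2 fold changes of scaled TPM + 1. Of the 102 genes, 98 reached 1 scaled TPM in at least 2 libraries and were tested among 13952 genes. The other 4, Gtf2i, Gtf3c4, Gtf3c5 and Taf1c, stayed between 0 and 1.23 in every library. Calls required a limma p under 0.05 after Benjamini-Hochberg adjustment together with a log2 fold change over 1 in size. The labels do not say that libraries came from separate mice, so the spread between them may be technical.

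Short windows at the 3′ ends of a few members are shown first, because the oligo(dT) primer of the assay reads an RNA through its poly(A) tail and the tail is set there. Rises and falls below are of the measured values, and whether they were of RNA amount or of tail length was not tested. AATAAA or ATTAAA is the poly(A) signal used in the nucleus, and TTTTAT or TTTTAAT is a cytoplasmic polyadenylation element (CPE), which can direct tail growth during maturation. Windows of 30 bases were read, on the sense strand, from annotated transcripts of GENCODE M21 on GRCm38, with the motif in capitals, and the choice of motifs and of genes was made after the values had been seen. Gtf2a1 (chr12:91555262-91555291, minus strand), Gtf2a2 (chr9:70022660-70022689, plus), Med31 (chr11:72211733-72211762, minus) and Med10 (chr13:69815997-69816026, plus) are shown with their CPE, as genes called higher in MII than in GV.
Gtf2a1: ataataaagataTTTTATttattgccagca
Gtf2a2: aatgtaacttttTTTTAATgacaaatcaaa
Med31: agttggcaaattTTTTATtaataaattatt
Med10: gagaaaactcggTTTTATagttacattttc

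Elof1 (chr9:22112993-22113022, minus strand), Polr2e (chr10:80035955-80035984, minus), Med8 (chr4:118415073-118415102, plus) and Med7 (chr11:46442677-46442706, plus) were called lower in MII and are shown with their poly(A) signal, since neither CPE spelling occurred in their last 100 bases. Polr2k (chr15:36176899-36176928, plus) was lower in MII as well and is shown because it did hold a CPE spelling.
Elof1: catgagcccatcAATAAAacagccagtgtg
Polr2e: actctcctgagaATTAAAggatactttgat
Med8: ttctgggtcttgAATAAAtgatagtttcct
Med7: atgaacaattggAATAAAatatggacgctg
Polr2k: aatacaattgtaTTTTAATactttgtataa

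Among members with an annotated 3′ UTR of at least 100 bases, a CPE spelling stood in the last 100 bases of 6 of 16 called higher in MII (37.5%), 9 of 51 not called (17.6%) and 4 of 24 called lower (16.7%). Over all genes tested the same shares were 32.2, 20.99 and 10.4%, and 20.1% of all 10396 such genes held one, so the members resembled other genes in this respect. A poly(A) signal was found in the last 50 bases of 80.2% of the members and 79.4% of all genes. The motifs can share letters, since TTTTAAT followed by AAA holds both. A match is a description of the annotated end, and whether oocytes use that end was not tested.

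The first comparison asks how these RNAs change when oocytes mature from GV to MII. Of the 98 members, 26 were lower in MII (26.5%, against 24.0% of all genes tested) and 17 were higher (17.3%, against 12.6%), and their median log2 fold change was 0.13, against 0.00 for all genes. These shares lie near those of all genes, so they are no result about the members as a whole, and what follows describes which members they were. All 3 polymerases together had 13 of 30 members lower and 0 higher, the TAFs had 3 of 19 lower and 8 higher, Mediator had 8 of 30 lower and 7 higher, the Gtf2 genes had 1 of 14 lower and 2 higher, and the Gtf3 genes had 1 of 5 lower and 0 higher. The 17 higher calls depend on the scaling: all 17 had log2 fold changes below 0 when libraries were scaled to their mitochondrially encoded RNAs, which shifted the median of all genes to −1.69. Under that scaling 101 members passed the filter, of which 83 were lower and 0 higher. Under quantile normalization, which shifted the median of all genes to 0.28, 23 were lower and 27 higher. With trends on transcript length and GC content removed, which shifted it to 0.15, 20 were lower and 22 higher. The shares of all genes called under these settings are not given, so the counts cannot be read against the 24.0 and 12.6% above.

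The second comparison sets Btg4tm oocytes, injected with the phosphosite mutant, against Btg4wt oocytes at MII. In Btg4tm over Btg4wt, 19 of 98 members were higher (19.4%, against 18.2% of all genes) and 10 were lower (10.2%, against 7.95%), again close to the shares of all genes, with a median of −0.16 against 0.01. The polymerases had 11 of 30 members higher and 3 lower, Mediator 6 of 30 higher and 5 lower, the TAFs 0 of 19 higher and 2 lower, and Gtf2 and Gtf3 1 higher each and 0 lower. Mitochondrial scaling, which shifted the median of all genes to 0.84, gave 44 higher and 1 lower of the 101 members then tested. Quantile normalization, with a median of all genes of −0.19, gave 17 higher and 16 lower. Removal of the length and GC trends, with a median of −0.12, gave 16 higher and 18 lower. Here too the shares of all genes under these settings are not given, so the counts describe the members only.

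**Figure D1:**
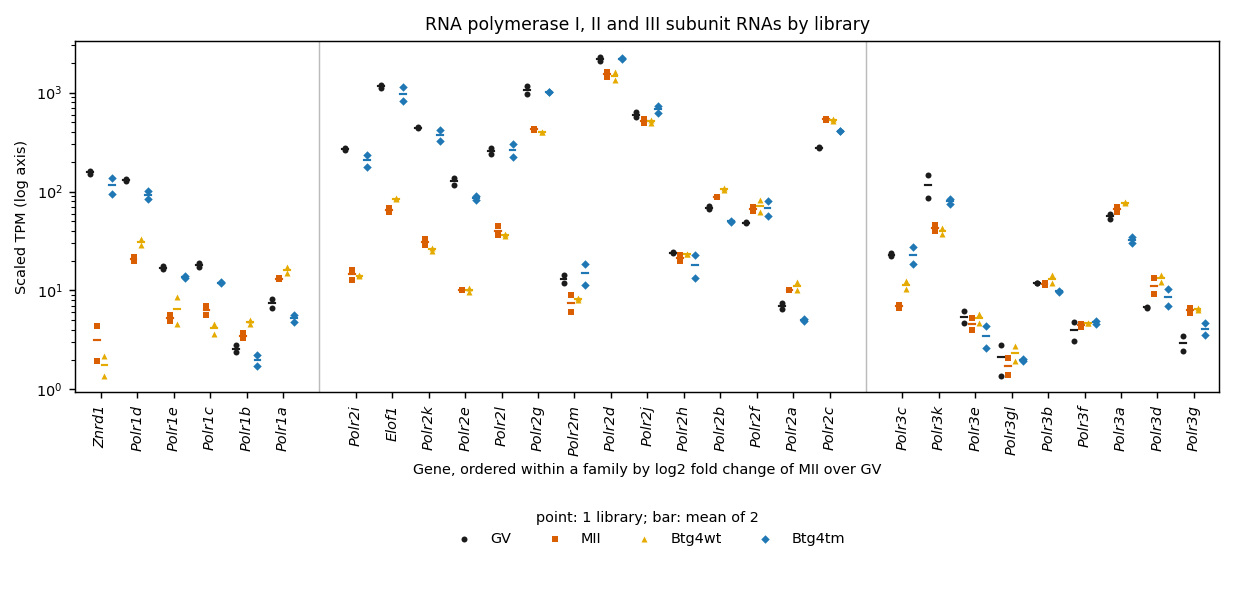
Scaled TPM (log axis) of RNA polymerase I, II and III genes in each of the 8 libraries, one point per library and a bar at the mean of each group of 2; genes are ordered within each polymerase by their log2 fold change of MII over GV. At the left of the Pol I and Pol II panels, Znrd1, Polr1d, Polr2i, Elof1, Polr2k, Polr2e and Polr2l are high in GV and Btg4tm and low in MII and Btg4wt.

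Pol I makes the large ribosomal RNA precursor, and its zinc-ribbon subunit had the largest change of all members in both comparisons. Znrd1 (chr17:36954356-36958559, minus strand) encodes the zinc-ribbon subunit that takes part in RNA cleavage by Pol I. It read 150 and 163 scaled TPM in GV, 4.41 and 1.92 in MII, 2.1999 and 1.36 in Btg4wt, and 95.4 and 137 in Btg4tm. All values of GV and Btg4tm thus lay far above all those of MII and Btg4wt. Znrd1 fell 39.6-fold in MII (log2 −5.31 ± 0.30 SE, limma with Benjamini-Hochberg adjusted p = 3.3e-06) and was 41.9-fold higher in Btg4tm than in Btg4wt (5.39 ± 0.30, adjusted p = 5.4e-06).

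Polr1c and Polr1d encode the subunits that Pol I shares with Pol III. Polr1d was at 127 and 133 in GV, 20.1 and 22.0 in MII, 33.5 and 28.5 in Btg4wt, and 83.5 and 102 in Btg4tm, and Polr1c was at 18.8 and 17.1, 5.68 and 6.90, 4.62 and 3.63, and 12.05 and 11.8 in the same order. Neither gene overlapped between the groups of either comparison. With 2 libraries in each group, a member with a small change could show the same, as Med6 did in MII (log2 0.12, not called). The share of all genes without overlap was not counted, so this is a description only. Polr1d fell 5.96-fold in MII and was 2.92-fold higher in Btg4tm than in Btg4wt, and Polr1c changed 2.61-fold and 2.53-fold in the same directions. With the length and GC trends removed, both calls of Polr1c ended (log2 −0.28 in MII, adjusted p = 0.19 by limma with Benjamini-Hochberg, and 0.49 in Btg4tm), as did the call of Polr1d in Btg4tm (0.66). Polr1e, a subunit particular to Pol I, fell 2.85-fold in MII and was 2.03-fold higher in Btg4tm, the latter call ending without Btg4tm replicate 2 (log2 0.99) or Btg4wt replicate 2 (0.62), with quantile normalization (0.79) and with the trends removed (0.89).

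The large catalytic subunits of Pol I went another way. Polr1a, the largest subunit, read 6.73 and 8.19 scaled TPM in GV, 13.0 and 13.3 in MII, 17.1 and 15.2 in Btg4wt, and 4.76 and 5.68 in Btg4tm. Its change in MII was under the fold required (log2 0.75, turning to −1.26 with mitochondrial scaling). In Btg4tm it was 2.76-fold lower than in Btg4wt (log2 −1.47 ± 0.17 SE, limma with Benjamini-Hochberg adjusted p = 0.00022). That call ended with mitochondrial scaling (−0.49, adjusted p = 0.087 by limma) and with the length and GC trends removed (−0.92). Polr1b, its partner, had log2 fold changes of 0.32 in MII (−1.34 with mitochondrial scaling) and −0.95 in Btg4tm and was not called, though the latter passed with quantile normalization (−1.16) and with 0.1 as pseudocount (−1.23). Together the 6 Pol I genes summed to 321 and 342 scaled TPM in GV, 52.6 and 52.3 in MII, 70.5 and 58.2 in Btg4wt, and 211 and 272 in Btg4tm. Their levels also drew closer together, with a standard deviation over the 6 genes of 2.18 and 2.15 log2 units in GV, 0.85 and 1.11 in MII, 1.26 and 1.32 in Btg4wt, and 2.06 and 2.16 in Btg4tm.

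Pol II transcribes the protein-coding genes. Polr2i (chr7:30231948-30233390, plus strand), the Pol II counterpart of Znrd1, read 278 and 264 in GV, 12.9 and 16.2 in MII, 14.2 and 14.0 in Btg4wt, and 176 and 237 in Btg4tm. Elof1 (chr9:22112989-22117172, minus strand), a small zinc-binding elongation factor that travels with Pol II, read 1203 and 1119, 62.1 and 68.5, 85.2 and 84.3, and 821 and 1129 in the same order. For both genes the Btg4tm libraries stood clear of MII and Btg4wt. Those of Polr2i lay below both GV values, and for Elof1 only Btg4tm replicate 2 (1129) lay in the GV range. The decline in MII was 17.6-fold for Polr2i and 17.5-fold for Elof1 (log2 −4.14 ± 0.16 and −4.13 ± 0.15 SE), and the level in Btg4tm was 13.6-fold and 11.2-fold above Btg4wt (3.77 ± 0.16 and 3.49 ± 0.15). Tbcb exons overlap 26.8% of the exonic bases of Polr2i, and counting was not by strand, so its value may hold reads of that gene.

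The Pol III member of the zinc-ribbon trio moved less. Polr3k was at 147 and 85.5 in GV, 40.0 and 45.9 in MII, 43.2 and 37.0 in Btg4wt, and 83.9 and 75.2 in Btg4tm. It was called lower in MII (2.58-fold), a call that ended when GV replicate 1 was left out (log2 −0.98). Its log2 difference of Btg4tm over Btg4wt was just under the fold required (0.97 ± 0.23 SE). It passed with mitochondrial scaling (2.04) and with the length and GC trends removed (1.05).

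Polr2e, Polr2f, Polr2h, Polr2k and Polr2l encode the subunits common to all 3 polymerases, and they did not move as a unit. Polr2k read 437 and 445 in GV, 28.9 and 33.5 in MII, 26.9 and 25.1 in Btg4wt, and 322 and 415 in Btg4tm. Polr2e read 116 and 138, 10.1 and 10.0007, 10.7 and 9.67, and 81.9 and 90.1 in the same order, and Polr2l 239 and 272, 36.0 and 44.6, 35.3 and 37.2, and 224 and 299. These 3 genes fell 13.8-fold, 11.6-fold and 6.24-fold in MII and were 13.6-fold, 7.78-fold and 6.99-fold higher in Btg4tm than in Btg4wt. Polr2f, at 48.2 and 48.9, 69.9 and 63.4, 62.6 and 81.2, and 56.5 and 80.3, and Polr2h, at 24.4 and 24.0, 22.6 and 19.99, 23.5 and 23.4, and 13.3 and 22.7, passed no test. Their log2 fold changes in MII were 0.45 ± 0.18 SE for Polr2f (−1.73 with mitochondrial scaling) and −0.18 ± 0.22 for Polr2h (−2.29 with that scaling). With the length and GC trends removed, Polr2f was called higher in MII (1.73, limma with Benjamini-Hochberg adjusted p = 4.3e-05) and Polr2h lower in Btg4tm (−1.27, adjusted p = 0.0011). Of the sequence of Polr2k 30.5% of 50-base stretches occur in 5 other annotated genes, and of Polr2l 21.05% occur in 74, so reads of such copies could be lost or shared.

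In the 2 largest subunits of Pol II, which form its active centre, the pattern of Polr1a recurred. Polr2b was at 70.9 and 66.1 in GV, 88.4 and 88.4 in MII, 109 and 103 in Btg4wt, and 49.0 and 50.8 in Btg4tm, and Polr2a at 6.53 and 7.45, 10.1 and 10.2, 10.1 and 12.04, and 5.15 and 4.97. The Btg4tm libraries of both genes were the lowest of all 8. Polr2b was 2.10-fold lower in Btg4tm than in Btg4wt (log2 −1.07 ± 0.10 SE, limma with Benjamini-Hochberg adjusted p = 6.3e-05), and Polr2a, at −0.99 ± 0.17, was just short of the fold required, which it passed with quantile normalization (−1.19). The call of Polr2b ended with mitochondrial scaling, which left a log2 difference of −0.00085 (adjusted p = 0.997 by limma), and with the length and GC trends removed (−0.81). In MII neither was called, with log2 fold changes of 0.36 for Polr2b and 0.48 for Polr2a that turned to −1.82 and −1.50 with mitochondrial scaling.

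The stalk subunit Polr2g, at 1176 and 975 in GV, 427 and 423 in MII, 398 and 400 in Btg4wt, and 1016 and 1014 in Btg4tm, fell 2.52-fold in MII and was 2.54-fold higher in Btg4tm. Both calls ended with the length and GC trends removed (log2 −0.51 and 0.62). Its partner in the stalk, Polr2d, was the most abundant member in every group, with means of 2204 in GV, 1528 in MII, 1469 in Btg4wt and 2204 in Btg4tm. Polr2d was not called in either comparison, but was called in both with mitochondrial scaling (log2 −2.745 in MII and 1.68 in Btg4tm). The 12 subunits of Pol II summed to 5609 and 5190 scaled TPM in GV, 3341 and 3234 in MII, 3063 and 3345 in Btg4wt, and 5161 and 5578 in Btg4tm. Unlike those of Pol I, their standard deviation stayed between 2.28 and 2.49 log2 units in all 8 libraries.

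Pol III makes transfer RNAs and other small RNAs. Its largest subunit, Polr3a, read 52.6 and 59.5 in GV, 69.9 and 62.2 in MII, 77.5 and 76.8 in Btg4wt, and 34.5 and 30.2 in Btg4tm. The Btg4tm libraries lay below all others, and Polr3a was 2.35-fold lower there than in Btg4wt (log2 −1.23 ± 0.12 SE), a call that ended with mitochondrial scaling (−0.17, adjusted p = 0.55 by limma), while in MII its log2 fold change was 0.23 (−1.95 with mitochondrial scaling) and not called. Its partner Polr3b stayed between 9.74 and 14.2 in the 8 libraries and was not called (in MII −2.05 on the log2 scale with mitochondrial scaling). Polr3c, a subunit of the Pol III initiation subcomplex, fell 3.01-fold in MII. Its log2 difference of 0.93 in Btg4tm was not called, but passed with mitochondrial scaling (1.95). The summed level of the 10 Polr3 genes was 270 and 216 in GV, 162 and 158 in MII, 182 and 173 in Btg4wt, and 197 and 170 in Btg4tm.

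Among the general factors of Pol II, both subunits of TFIIA had the largest rises of all members in maturation. Gtf2a1, its large subunit, read 99.8 and 66.0 in GV, 311 and 318 in MII, 281 and 239 in Btg4wt, and 167 and 114 in Btg4tm, and Gtf2a2, its small subunit, 59.6 and 54.5, 178 and 178, 168 and 158, and 89.8 and 120. Every Btg4tm value lay between those of GV and those of Btg4wt. Gtf2a1 rose 3.84-fold and Gtf2a2 3.08-fold in MII (log2 1.94 ± 0.22 and 1.62 ± 0.14 SE), though with mitochondrial scaling both fell below GV (−0.26 and −0.57). In Btg4tm over Btg4wt they had log2 fold changes of −0.91 ± 0.22 and −0.65 ± 0.14, under the fold required.

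Gtf2h5, the smallest subunit of the TFIIH core, read 90.4 and 77.2 in GV, 28.7 and 26.9 in MII, 27.6 and 24.5 in Btg4wt, and 65.7 and 73.1 in Btg4tm. It was the Gtf2 gene called lower in MII (2.94-fold) and the one called higher in Btg4tm (2.60-fold). Gtf2b, which is TFIIB, was at 143 and 159, 152 and 158, 232 and 226, and 143 and 177, with a log2 fold change of 0.04 in MII (−2.16 with mitochondrial scaling) and of −0.52 in Btg4tm, and was not called. Gtf2a1l, the germ-cell form of the TFIIA large subunit, was the most abundant Gtf2 gene in all 4 groups (means of 455, 626, 634 and 399.6 in the order used above) and was not called.

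Of the Pol III factors, Gtf3c6, a TFIIIC subunit, was at 18.6 and 21.8 in GV, 9.08 and 5.39 in MII, 8.12 and 6.66 in Btg4wt, and 15.5 and 18.2 in Btg4tm. It fell 2.63-fold in MII and was 2.13-fold higher in Btg4tm, the latter call ending without Btg4tm replicate 2 or Btg4wt replicate 2 (log2 0.98 and 0.96), with quantile normalization (0.87) and with the length and GC trends removed (0.94). Gtf3a, which is TFIIIA, was at 14.9 and 18.2, 9.03 and 9.62, 9.08 and 9.94, and 10.3 and 11.1 and was not called (log2 −0.76 in MII and 0.16 in Btg4tm). With mitochondrial scaling it was called in both comparisons (−2.79 and 1.14). Exons of Mtif3 overlap 59.1% of the exonic bases of Gtf3a.

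**Figure D2:**
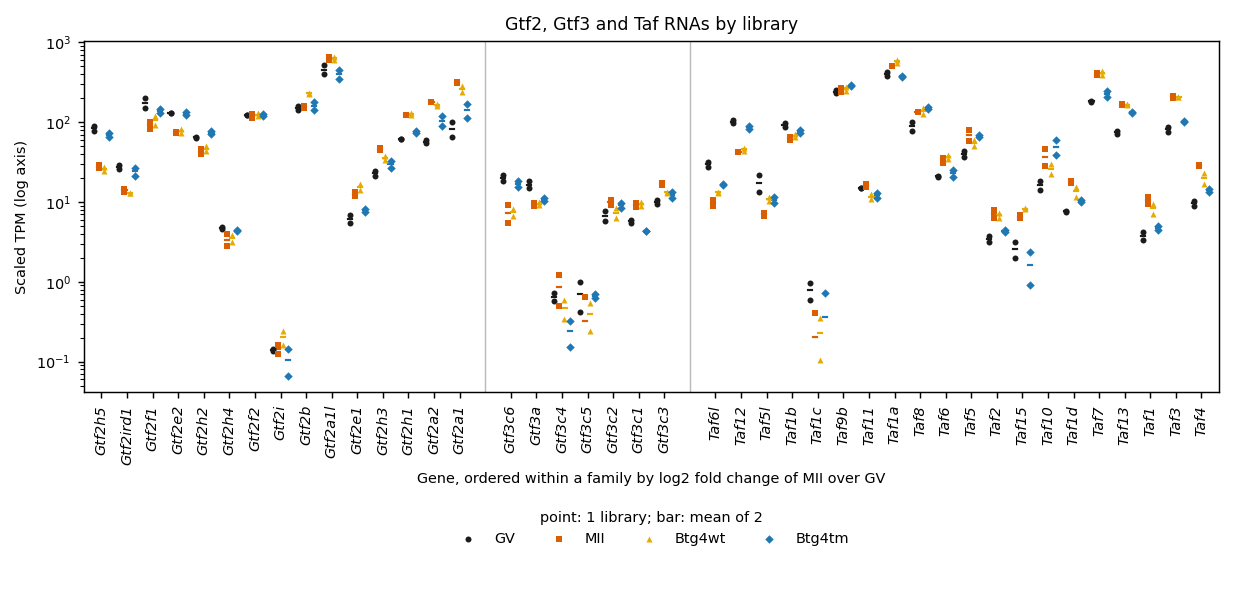
Scaled TPM (log axis) of the Gtf2, Gtf3 and Taf genes in each library, with a bar at each group mean; a library at 0 is not drawn, and untested genes are placed as if their change were 0. Gtf2a1 and Gtf2a2 and the 8 Taf genes at the right of their panels are higher in MII than in GV in these units, an order that turns for the named risers under mitochondrial scaling, and Gtf2h5, Gtf3c6, Taf6l, Taf12 and Taf5l are lower.

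The TAFs had a median log2 fold change in MII of 0.77, against 0.00 for all genes. Of their 19 members 8 were higher (42.1%, against 12.6% of all genes), each of them below GV once libraries were scaled to mitochondrially encoded RNAs. Taf4, a TFIID core subunit, read 9.04 and 10.2 in GV, 28.99 and 28.0 in MII, 22.8 and 16.9 in Btg4wt, and 13.3 and 14.7 in Btg4tm, and so rose 2.79-fold in MII (−0.61 on the log2 scale with mitochondrial scaling). Taf3, a TFIID subunit that reads a histone mark of active promoters, was at 75.2 and 87.5, 211 and 203, 209 and 205, and 102 and 99.9. It rose 2.53-fold in MII and was 2.04-fold lower in Btg4tm than in Btg4wt, both differences turning with mitochondrial scaling (log2 −0.86 and 0.05) and the second losing its call with the length and GC trends removed (−0.68).

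Taf1, the largest TFIID subunit, read 3.30 and 4.18 in GV, 11.5 and 9.42 in MII, 9.51 and 7.09 in Btg4wt, and 4.43 and 4.99 in Btg4tm. It rose 2.42-fold in MII (−0.63 on the log2 scale with mitochondrial scaling, and 0.71 with no call with the length and GC trends removed), and its log2 fold change of −0.69 in Btg4tm was not called. Taf7, Taf13 and Taf1d, of TFIID for the first pair and of the Pol I selectivity factor for the last, rose 2.197-fold, 2.21-fold and 2.17-fold in MII but had log2 fold changes of −1.07, −1.05 and −0.92 with mitochondrial scaling. With TPM as deposited all 3 were just under the fold required (0.98, 0.99 and 0.98), and Taf7 was at 0.73 with the length and GC trends removed.

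Taf15, an RNA-binding protein found with TFIID, was low throughout, at 2.01 and 3.14 in GV, 6.80 and 6.30 in MII, 8.36 and 8.17 in Btg4wt, and 0.917 and 2.36 in Btg4tm. It was 3.65-fold lower in Btg4tm than in Btg4wt (log2 −1.87 ± 0.29 SE, limma with Benjamini-Hochberg adjusted p = 0.0010). Its rise in MII (log2 1.10, and −0.68 with mitochondrial scaling) lost its call without GV replicate 1 (0.86) and with TPM as deposited (0.97).

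The 3 TAF genes that fell in MII included both of the paralogs that serve the SAGA coactivator in place of TFIID subunits. Taf6l read 27.3 and 31.8 in GV, 10.6 and 8.89 in MII, 13.3 and 13.0 in Btg4wt, and 16.8 and 16.2 in Btg4tm, and Taf5l read 13.3 and 21.7, 7.29 and 6.78, 10.4 and 11.7, and 11.4 and 9.79. Taf6l fell 2.84-fold and Taf5l 2.25-fold in MII, and in Btg4tm over Btg4wt neither was called (log2 0.31 ± 0.15 and −0.05 ± 0.23 SE). With mitochondrial scaling Taf6l was called higher in Btg4tm (1.32). Both calls in MII ended with the length and GC trends removed (log2 −0.65 for Taf6l and −0.76 for Taf5l), and that of Taf5l also with quantile normalization (−0.85) and without GV replicate 2 (−0.83). Taf12, which TFIID and SAGA share, fell 2.39-fold in MII, from 106 and 97.2 to 41.7 and 42.1. It was at 82.6 and 89.3 in Btg4tm against 47.9 and 43.2 in Btg4wt. That log2 fold change of 0.90 was under the fold required, which it passed with mitochondrial scaling (1.97).

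Taf10, also shared by TFIID and SAGA, was the 1 member called between Btg4tm and GV. It read 18.3 and 14.3 in GV, 28.4 and 45.8 in MII, 29.96 and 22.5 in Btg4wt, and 38.4 and 60.3 in Btg4tm. The libraries of a group differed widely, and its rise in MII (log2 1.11 ± 0.29 SE, −1.02 with mitochondrial scaling) lost its call without GV replicate 2 (0.95) or MII replicate 2 (0.79) and with TPM as deposited (0.96). Exons of Ilk overlap 45.9% of its exonic bases.

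**Figure D3:**
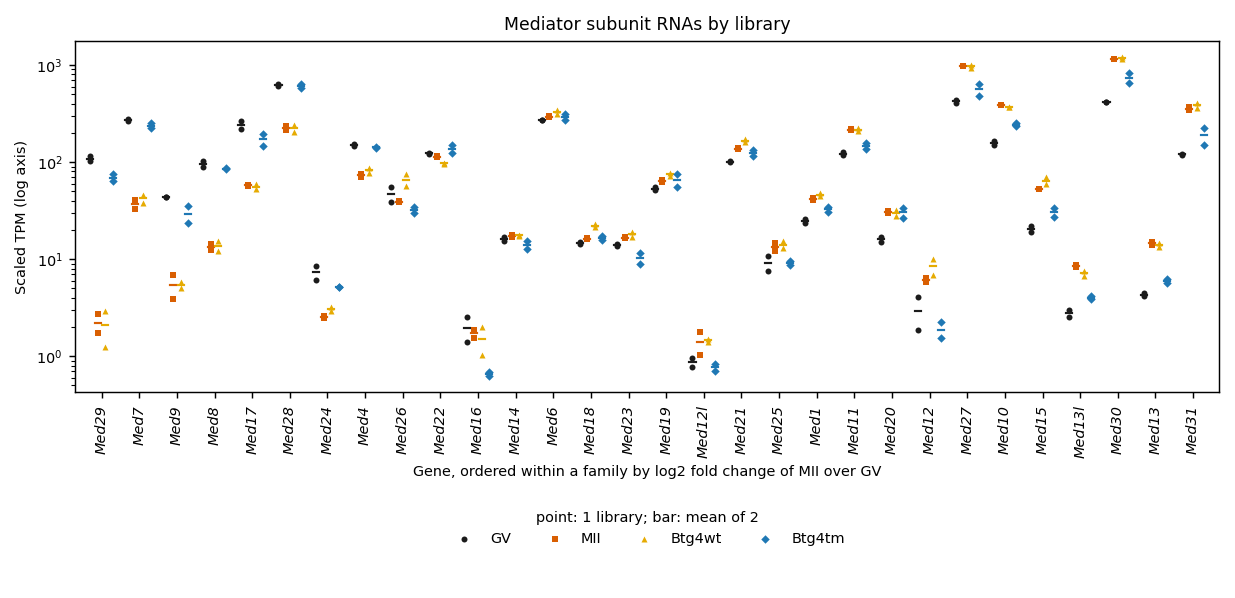
Scaled TPM (log axis) of the 30 Mediator genes in each library, with a bar at each group mean, ordered by the log2 fold change of MII over GV. The 8 genes at the left, from Med29 to Med4, are lower in MII and nearer to GV in Btg4tm, and the 7 at the right, from Med27 to Med31, are higher in MII, an order that turns under mitochondrial scaling.

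Within Mediator, genes of the same module went opposite ways. Med29 (chr7:28386146-28392708, minus strand), a subunit of the upper tail, read 115 and 102 in GV, 2.70 and 1.72 in MII, 2.92 and 1.25 in Btg4wt, and 63.6 and 74.5 in Btg4tm. It fell 34.4-fold in MII (log2 −5.10 ± 0.27 SE, limma with Benjamini-Hochberg adjusted p = 2.3e-06) and was 23.5-fold higher in Btg4tm than in Btg4wt (4.55 ± 0.27, adjusted p = 6.6e-06), next to Znrd1 in size. Med27, which neighbours it in the complex, was at 439 and 408, 974 and 985, 928 and 1004, and 479 and 640. It rose 2.31-fold in MII, a change of −1.01 on the log2 scale with mitochondrial scaling, and was not called in Btg4tm.

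The middle module held both the next largest decline and 2 of the members that rose. Med7 read 280 and 266 in GV, 40.8 and 33.1 in MII, 46.3 and 38.3 in Btg4wt, and 223 and 250 in Btg4tm, a 7.25-fold fall in MII and a level 5.50-fold higher in Btg4tm. Med31 was at 121 and 119, 366 and 344, 360 and 405, and 151 and 227, and Med10 at 163 and 151, 383 and 387, 372 and 371, and 233 and 252. Med31 rose 2.94-fold and Med10 2.44-fold in MII, both turning with mitochondrial scaling (log2 −0.65 and −0.92). Med31 was also 2.06-fold lower in Btg4tm, a call that ended without Btg4tm replicate 1 (−0.75) or Btg4wt replicate 2 (−0.97) and a difference of 0.04 with mitochondrial scaling. Exons of Gm26819 overlap 92.8% of the exonic bases of Med10, so their reads cannot be told apart without strand, and 26.3% of those of Med31 lie under another gene. For Med7 the share under another gene is 21.2%. Med9 and Med4, of the same module, fell 7.18-fold and 2.04-fold. The call of Med4 ended without GV replicate 2 or MII replicate 2 (log2 −0.99 and −0.97), with quantile normalization (−0.83) and with the length and GC trends removed (−0.24).

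In the head module, which contacts Pol II, Med8 read 103 and 88.3 in GV, 12.6 and 14.4 in MII, 15.5 and 12.02 in Btg4wt, and 85.0 and 86.2 in Btg4tm. It fell 6.66-fold in MII and was 5.91-fold higher in Btg4tm. Med17, the central subunit of the head, fell 4.17-fold and was 3.02-fold higher, while Med6 stayed between 269 and 340 in the 8 libraries (in MII −2.09 on the log2 scale with mitochondrial scaling). Med28, at 635 and 611, 213 and 236, 243 and 203, and 582 and 631, fell 2.77-fold and was 2.72-fold higher in Btg4tm, and Med30, the most abundant Mediator RNA in MII, rose 2.78-fold from 412 and 417 to 1147 and 1158 (−0.74 on the log2 scale with mitochondrial scaling).

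Med14, the backbone that joins the modules, was at 15.3 and 17.0 in GV, 17.6 and 16.8 in MII, 17.5 and 17.6 in Btg4wt, and 15.5 and 12.7 in Btg4tm and was not called (log2 0.09 in MII, −1.998 with mitochondrial scaling). Med1, which binds nuclear receptors, had log2 fold changes of 0.73 in MII (−1.42 with mitochondrial scaling) and −0.50 in Btg4tm and was not called either. Med15, a tail subunit bound by activators, was at 18.9 and 22.1, 52.4 and 52.3, 58.9 and 69.9, and 26.9 and 33.9. It rose 2.49-fold in MII, which turned to −0.84 with mitochondrial scaling, and was 2.09-fold lower in Btg4tm, where the call ended without Btg4tm replicate 1 (−0.90) or Btg4wt replicate 2 (−0.95) and mitochondrial scaling left a difference of 0.00054. Med26, which ties Mediator to elongation factors, had log2 fold changes of −0.23 in MII (−2.39 with mitochondrial scaling) and −1.01 in Btg4tm. The latter lost its call without any of Btg4tm replicate 1, Btg4wt replicate 2 and either GV library (−0.9995 to −0.80). It stood at 0.06 with mitochondrial scaling. Med24, a tail subunit, fell 2.32-fold in MII. That call ended without GV replicate 1 (−0.9991), with quantile normalization (−0.87) and with the length and GC trends removed (−0.83). In Btg4tm Med24 was not called, but passed with mitochondrial scaling (1.45).

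The kinase module genes taken by the symbol rule were low in all groups. Ccnc and Cdk8, of the same module, lie outside the rule. Ccnc read 36.2 and 33.8 in GV, 13.0 and 14.5 in MII, 14.4 and 11.8 in Btg4wt, and 32.1 and 32.7 in Btg4tm. It was called lower in MII (log2 −1.29) and higher in Btg4tm (1.25), while Cdk8 was called in neither comparison. Med13 read 4.19 and 4.44 in GV, 15.0 and 14.1 in MII, 14.5 and 13.3 in Btg4wt, and 5.70 and 6.29 in Btg4tm, and Med12 read 1.86 and 4.05, 6.38 and 5.81, 10.1 and 6.82, and 1.54 and 2.23. Btg4tm and GV thus lay below MII and Btg4wt for both. Med13 rose 2.92-fold in MII (−0.41 on the log2 scale with mitochondrial scaling) and was 2.13-fold lower in Btg4tm than in Btg4wt, and Med12 was 3.26-fold lower in Btg4tm, with a log2 fold change in MII of 0.90 that was not called. With mitochondrial scaling both calls in Btg4tm ended (log2 −0.11 for Med13 and −0.85 for Med12), and with the length and GC trends removed Med13 was called in neither comparison (0.57 in MII and −0.26 in Btg4tm). Med12 was called higher in MII with quantile normalization (1.25). Med13l, the paralog of Med13, rose 2.53-fold in MII (−0.49 with mitochondrial scaling, and 0.97 with no call with the trends removed) and was not called in Btg4tm. The summed level of Mediator was 3566 and 3440 in GV, 4369 and 4372 in MII, 4410 and 4633 in Btg4wt, and 3758 and 4296 in Btg4tm.

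MII against GV and Btg4tm against Btg4wt share no library, so the change of each member in one can be set beside its change in the other. Of the 26 members lower in MII, 19 were higher in Btg4tm (73.1%, against 70.0% of all genes lower in MII), and 0 were lower. The 7 others were Med24, Med4, Polr3c, Polr3k, Taf12, Taf5l and Taf6l. This split depends on the scaling. With mitochondrial scaling, which shifted the median of all genes to 0.84, most of them were called higher in Btg4tm too. Their log2 fold changes were then 1.45 for Med24, 1.87 for Med4, 1.95 for Polr3c, 2.04 for Polr3k, 1.97 for Taf12 and 1.32 for Taf6l. Of the 17 members higher in MII, 5 were lower in Btg4tm (29.4%, against 26.5%), namely Med13, Med15, Med31, Taf3 and Taf15. A further 5 were lower in Btg4tm without a call in MII: Polr1a, Polr2b, Polr3a, Med12 and Med26. The first 3 of these are large catalytic subunits, and under mitochondrial scaling none of the 3 was called (log2 −0.49, −0.00085 and −0.17).

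**Figure D4:**
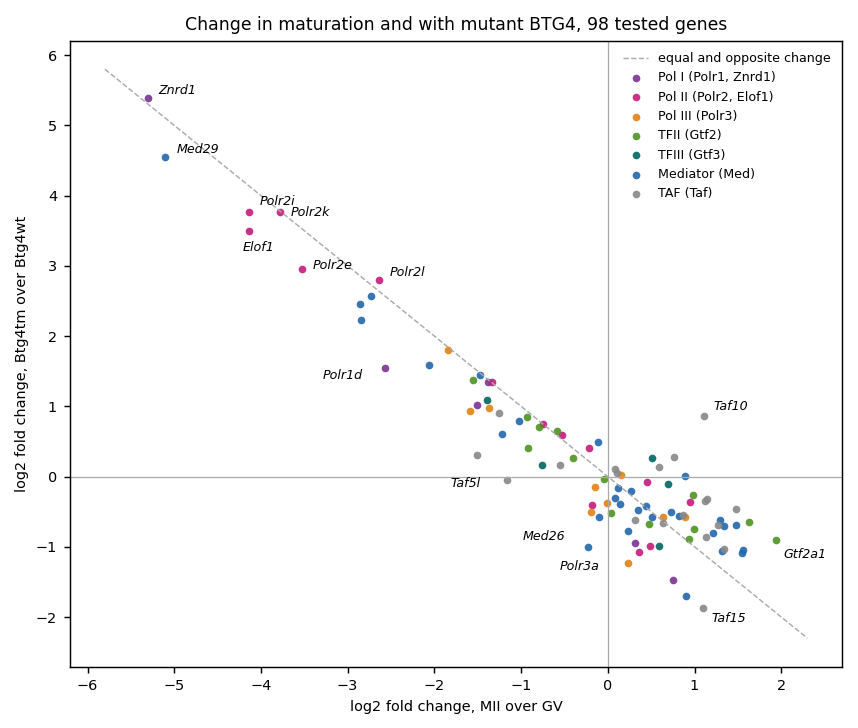
Log2 fold change of MII over GV (horizontal axis) against log2 fold change of Btg4tm over Btg4wt (vertical axis) for the 98 tested genes, coloured by family; on the dashed line both changes are equal and opposite. Znrd1, Med29, Polr2i, Polr2k, Elof1, Polr2e and Polr2l lie along the upper left of that line, Polr1d and Taf5l lie below it, and Taf10 lies above it.

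The regained share of a gene was defined as the difference of Btg4tm and Btg4wt over that of GV and MII, in percent on the log2 scale. Btg4tm oocytes were read only at MII, so an RNA that fell and rose again was not observed by this share. For the 26 members lower in MII its median was 84.2% (quartiles 71.3 and 96.1%), against 76.5% for the 3351 genes lower in MII. Under mitochondrial scaling the median was 55.3%, over the 83 members then lower in MII. Polr2l stood at 106%, Znrd1 at 102% and Polr2g at 101%. At the other end, among members with a GV mean of at least 10, were Taf5l at −4.51%, Taf6l at 20.3% and Polr3c at 58.6%. For the 17 members higher in MII the median was 52.4%, against 52.1% for all such genes.

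A test of the sum of both log2 changes, which is 0 where they are equal and opposite, called 6 members, 3 lower (1.70% of all genes) and 3 higher (1.99%). Polr1d (−1.03), Med26 (−1.24) and Taf6l (−1.20) were on the lower side, and Taf4 (1.02), Taf5 (1.04) and Taf10 (1.98) on the higher side. Taf5, a TFIID scaffold subunit, was not called in either comparison on its own (log2 0.77 in MII, −1.41 with mitochondrial scaling, and 0.27 in Btg4tm). This count rested on single libraries, as 0 members were called without Btg4wt replicate 1, GV replicate 2, MII replicate 1 or MII replicate 2, and 1 without Btg4wt replicate 2.

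A further pair of comparisons shares libraries with those above and was made to place the injected groups. Between Btg4wt and MII 0 of 98 members were called by limma (0% of all genes lower and 0% higher), 14 members (14.3%) and 1657 genes (11.9%) had an unadjusted p under 0.05, and the smallest adjusted p (Benjamini-Hochberg) of a member was 0.19, for Gtf2b. The differences of the members were at most 0.72 in size. Between Btg4tm and GV 1 member was called, Taf10 (log2 1.52 ± 0.29 SE), against 1.02% of all genes lower and 1.02% higher, and this call was gone without GV replicate 2. In the same comparison 41 members (41.8%) and 4144 genes (29.7%) had an unadjusted p under 0.05, and the member medians were −0.02 and, for all genes, −0.08.

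The changes went with annotated transcript length over all genes and over the polymerase genes, and the correlation varied between the other families. Across the 98 members, Spearman's rho between length and log2 fold change was 0.32 for MII over GV and −0.40 for Btg4tm over Btg4wt, and across 13646 genes it was also 0.32 and −0.40. Within the 30 polymerase genes the values were 0.55 and −0.67, within the 30 Mediator genes 0.04 and −0.23, within the 19 TAF genes 0.42 and −0.06, and within the 14 Gtf2 genes 0.03 and −0.11. These correlations are across genes, which share libraries and are not replicates. Of the 30 members under 1500 bases, 11 were lower in MII (36.7%, against 38.7% of all genes so short), and of the 29 over 3500 bases 3 were (10.3%, against 8.52%). In Btg4tm over Btg4wt 10 of the short members were higher (33.3%, against 32.6%) and 6 of the long ones lower (20.7%, against 17.1%). In other respects the short members differed from short genes: 6 of the 30 were higher in MII (20%, against 9.59%), and their medians were −0.16 in MII and 0.06 in Btg4tm, against −0.56 and 0.44 for all short genes and −0.11 and 0.11 for members of 1500 to 3500 bases. With the length and GC trends removed, members not called before were called lower in Btg4tm, among them Med27 (log2 −1.67), Gtf2a2 (−1.42), Med10 (−1.40), Med30 (−1.35), Gtf2a1l (−1.28) and Gtf2b (−1.13). These length classes were set after the values had been seen.

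**Figure D5:**
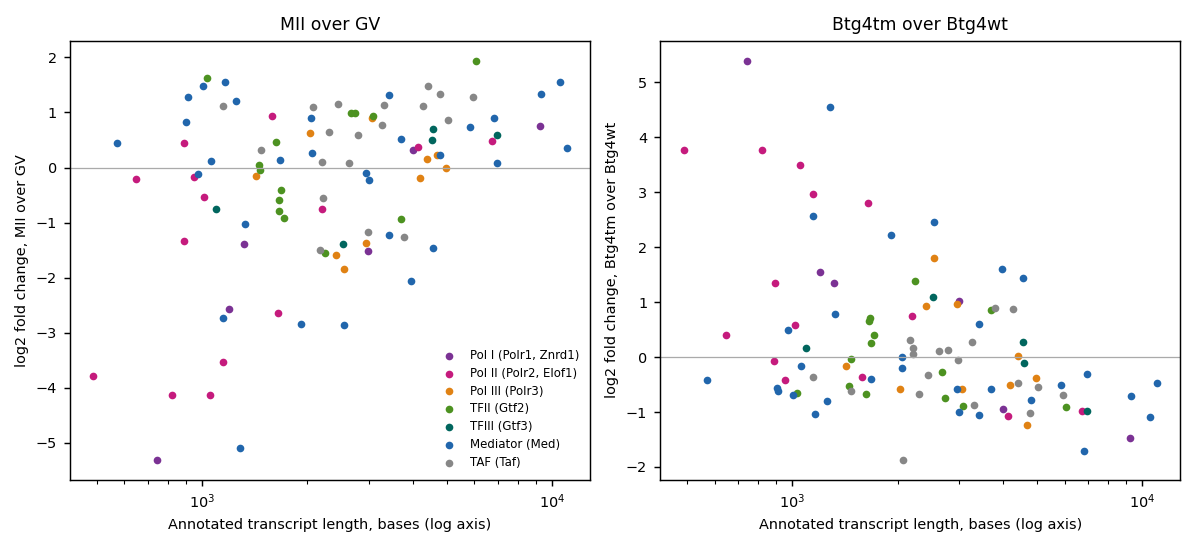
Annotated transcript length (log axis) of the 98 tested genes against their log2 fold change of MII over GV (left) and of Btg4tm over Btg4wt (right), coloured by family. The 6 genes at the bottom of the left panel and the top of the right one (Znrd1, Med29, Polr2i, Elof1, Polr2k and Polr2e) are all under 1500 bases; the longest genes lie near or above 0 on the left, where a rise turns under mitochondrial scaling, and below 0 on the right.

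Of 65 other genes of the transcription machinery outside the symbol rule, 64 were tested. Of these, 19 were lower in MII (29.7%, against 24.0% of all genes) and 8 higher (12.5%, against 12.6%), while 13 were higher in Btg4tm (20.3%, against 18.2%) and 10 lower (15.6%, against 7.95%). Drap1, a subunit of the NC2 repressor of TBP, had the largest change of the list in both comparisons and read 129 and 141 in GV, 7.69 and 5.77 in MII, 7.48 and 4.04 in Btg4wt, and 114 and 123 in Btg4tm. Nelfe of the pausing factor NELF, Gpn1, a GTPase needed to import Pol II, Polrmt, the mitochondrial RNA polymerase, and Supt4a of the elongation factor DSIF followed, with log2 fold changes of −3.68, −3.67, −3.62 and −3.44 in MII and 2.58, 3.08, 2.75 and 3.27 in Btg4tm.

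The largest rises of the list in MII were those of Rtf1, an elongation factor that works with the PAF complex (log2 1.91), Sub1, a coactivator (1.54), and Aff4, a scaffold of the super elongation complex (1.36), all of them turning with mitochondrial scaling (−0.24, −0.68 and −0.33). The largest falls in Btg4tm were those of Aff1, the paralog of Aff4 (−1.94), Aff4 itself (−1.86) and Supt5, the partner of Supt4a in DSIF (−1.71). Mitochondrial scaling ended the calls of Aff1 (−0.93) and Supt5 (−0.67). Among 26 elongation factor genes 3 were lower (11.5%) and 5 higher (19.2%) in MII, and 3 were higher (11.5%) and 7 lower (26.9%) in Btg4tm. Tbp stayed between 31.6 and 39.0 in the 8 libraries, and Tbpl2, its oocyte paralog, between 58.2 and 86.9, and neither was called, but their log2 fold changes in MII were −2.26 and −1.95 with mitochondrial scaling.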

How the data were processed

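The authors made Smart-seq2 libraries, trimmed reads with Trim Galore 0.6.10, aligned them to GRCm38 with HISAT2 2.2.0 and GENCODE vM25, and counted exons with featureCounts 2.0.6, without strand and at a mapping quality of at least 10. They deposited TPM per gene symbol; the gene lengths and the filter on listed genes are not given in the sources used here. The 15962 genes of all 8 tables were scaled by median of ratios and fitted as log2(scaled TPM + 1) with limma 3.58.1 in R 4.3.3 (eBayes with trend, all 8 libraries), with a filter of 1 scaled TPM in 2 libraries. Comparisons were MII with GV, Btg4tm with Btg4wt, Btg4wt with MII, Btg4tm with GV, and the sum of the first pair of changes. On simulated data the fit recovered 192 of 200 changed genes in Btg4tm over Btg4wt. How recovery varied with fold change or with the level of a gene was not tested, so this count does not cover calls near the fold required or in low genes. Lengths, overlaps and 3′ ends came from GENCODE M21, with 98 of 98 members and 13646 of 13952 genes matched.

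The members, lists, tests and alternatives were chosen with earlier results of these data known. Named genes were structural landmarks (the zinc-ribbon, catalytic and shared subunits, Gtf2b, Gtf3a, Med1, Med12, Med13, Med14, Taf1 and Taf10), the 2 largest rises and falls called in each family (mean over libraries of 10 scaled TPM or more), all members called higher in MII or lower in Btg4tm, the 3 lowest and 3 highest regained shares among members with a GV mean of at least 10, and members called for the sum of changes. From the list of other transcription genes the 3 largest rises and the 3 largest falls called in each of the 2 main comparisons were taken. Polr1e, Polr2d, Gtf2a1l, Med4, Med6, Med9, Med17, Med24, Med28, Tbp, Tbpl2 and Polrmt were added after their values were seen. Ccnc and Cdk8, given with the kinase module, were also added then and are not among the named genes recomputed below. The values of 1 polymerase gene are not reported here.

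Other settings tried were unscaled TPM, quantile normalization, scaling to the mitochondrially encoded RNAs, 0.1 as pseudocount, a filter at 5 TPM or none, length and GC trends removed by loess (span 0.3), array weights, eBayes without trend, 4 libraries only, a replicate block, other thresholds, and each library left out. With 1 library left in a group, that library was assumed to vary like the others.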

Additional observations from a re-analysis of the deposited data

How the results depend on the processing

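Of 241 recomputed counts and medians 204 stayed near the reported value, and of 2734 recomputed changes of named genes 2581 kept their direction and call, 56 gained and 57 lost a call, and 40 turned.

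Mitochondrial scaling moved most, and 101 members passed the filter under it. It gave 83 members lower and 0 higher in MII, 44 higher and 1 lower in Btg4tm over Btg4wt, 22 called between Btg4tm and GV, 56 called for the sum of changes, a median regained share of 55.3%, and medians of −1.89 (MII over GV), 0.79 (Btg4tm over Btg4wt), 0.49 (Btg4wt over MII) and −0.64 (Btg4tm over GV). The median of all genes shifted to −1.69 in MII over GV and 0.84 in Btg4tm over Btg4wt, so members moved with other genes. The log2 fold changes that turned in MII over GV were Rtf1 −0.24, Gtf2a1 −0.26, Aff4 −0.33, Med13 −0.41, Med13l −0.49, Gtf2a2 −0.57, Taf4 −0.61, Taf1 −0.63, Med31 −0.65, Sub1 −0.68, Taf15 −0.68, Med30 −0.74, Med15 −0.84, Taf3 −0.86, Med10 −0.92, Taf1d −0.92, Med27 −1.01, Taf10 −1.02, Taf13 −1.05, Taf7 −1.07, Polr1a −1.26, Polr1b −1.34, Taf5 −1.41, Med1 −1.42, Aff1 −1.46, Polr2a −1.50, Supt5 −1.57, Polr2f −1.73, Gtf2a1l −1.74, Polr2b −1.82, Tbpl2 −1.95, Polr3a −1.95, Med14 −1.998, Med6 −2.09 and Gtf2b −2.16. In Btg4tm over Btg4wt they were Med31 0.0395, Taf3 0.0548, Med26 0.0575, Med15 0.000544 and Tbp 1.03. The cause was not tested.

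With TPM as deposited the member median was −0.0254 for MII over GV and −0.17 for Btg4tm over GV. Quantile normalization gave 27 higher in MII, 16 lower in Btg4tm, and medians of 0.38 and −0.35, against 0.28 and −0.19 for all genes. With length and GC trends removed, 18 were lower in Btg4tm and the medians were 0.37 and −0.32, against 0.15 and −0.12 for all genes. With no minimum fold change, 39 were higher in MII, 36 lower and 32 higher in Btg4tm, 13 called between Btg4tm and GV and 14 for the sum of changes. An adjusted p under 0.01 left 0 in each of the last 2, and eBayes without trend left 0 for the sum. Without single libraries, calls between Btg4tm and GV ranged from 0 to 2 and those for the sum from 0 to 7.

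Same-numbered libraries did not deviate together (correlations of replicate differences −0.02 for GV with MII and 0.06 for Btg4wt with Btg4tm). Whether they shared mice, a day or a batch cannot be told from these values. The replicate block gave 26 lower and 17 higher in MII, 19 higher and 10 lower in Btg4tm, 5 for the sum of changes, and changed no call of a named gene. Depth cannot be had from TPM, which limits the low members most.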
